A study of Mus musculus with 4 samples.

Results

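The genes described here are 10 enzymes of drug and xenobiotic metabolism followed through proximal tubule cells in single-cell RNA-Seq of whole mouse kidneys: the UDP-glucuronosyltransferases Ugt3a1, Ugt3a2, Ugt2b37 and Ugt2b38, the cytochromes P450 Cyp2a4 and Cyp2e1, and the glutathione transferases Gsta2, Gsta4, Gstm1 and Mgst1. They were chosen by symbol, and all 10 were found among the 32285 genes of the count tables. The choice was made with their levels in these libraries already known, so levels and ratios are a description and no test was applied to them. All mice were male C3H, 18 weeks old. WT mice carried wild-type SGLT2, and SP mice were homozygous for Sweet Pee, a missense mutation of Slc5a2 that leaves no functional SGLT2, the glucose cotransporter of the early proximal tubule. Each genotype ate normal diet (ND) or, for 8 weeks from 10 weeks of age, a high-fat diet (HFD) with 60% of calories from fat. Each of the 4 groups was 1 library, and the number of mice behind a library is not given in the sources used here, so differences between mice cannot be told apart from those of genotype and diet. Slc5a2 RNA does not check the genotype, because a missense change leaves a transcript to be counted.

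The proximal tubule reabsorbs most of the filtrate and also clears foreign compounds and hormones. Phase I enzymes such as the P450s oxidise a substrate, and phase II enzymes attach a polar group: UDP-glucuronosyltransferases add a sugar and glutathione transferases add glutathione. Cyp2e1 oxidises small molecules such as ethanol and acetone, and Cyp2a4 hydroxylates steroids. UGT2B enzymes use glucuronic acid, whereas the UGT3A enzymes use other sugars. Gsta2, Gsta4 and Gstm1 are soluble, Gsta4 acting on products of lipid peroxidation, and Mgst1 sits in membranes. The early tubule carries the bulk of glucose reabsorption, and the late tubule, or S3 segment, reaches into the outer medulla.

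The sequences below are the 250 bases before an annotated start of 4 of the genes, from RefSeq on GRCm38.p6, written 5′ to 3′ on the strand of the gene. Ugt2b38 and Ugt2b37 are shown as neighbours whose levels differed in their pattern, and Cyp2e1 and Cyp2a4 as the P450s, which differed in theirs. Capitals mark an exact copy of CAAAGTCC, a core bound by HNF4A, searched on both strands and taken up after the sequences had been read.
Ugt2b38, chr5:87424204-87424453, minus strand: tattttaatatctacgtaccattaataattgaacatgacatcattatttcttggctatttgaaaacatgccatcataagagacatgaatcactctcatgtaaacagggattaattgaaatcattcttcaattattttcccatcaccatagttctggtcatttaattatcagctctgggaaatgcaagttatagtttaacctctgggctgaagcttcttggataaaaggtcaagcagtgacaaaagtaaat
Ugt2b37, chr5:87254789-87255038, minus strand: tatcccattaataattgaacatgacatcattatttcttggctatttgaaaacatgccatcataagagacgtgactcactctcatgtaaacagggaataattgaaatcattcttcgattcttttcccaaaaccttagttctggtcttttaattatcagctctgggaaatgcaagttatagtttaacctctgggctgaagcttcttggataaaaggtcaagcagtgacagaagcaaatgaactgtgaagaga
Cyp2e1, chr7:140763569-140763818, plus strand: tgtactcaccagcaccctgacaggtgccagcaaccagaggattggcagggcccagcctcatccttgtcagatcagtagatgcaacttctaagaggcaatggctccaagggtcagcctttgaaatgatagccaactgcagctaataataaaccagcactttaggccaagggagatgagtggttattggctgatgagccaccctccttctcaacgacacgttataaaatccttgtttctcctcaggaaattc
Cyp2a4, chr7:26306942-26307191, plus strand: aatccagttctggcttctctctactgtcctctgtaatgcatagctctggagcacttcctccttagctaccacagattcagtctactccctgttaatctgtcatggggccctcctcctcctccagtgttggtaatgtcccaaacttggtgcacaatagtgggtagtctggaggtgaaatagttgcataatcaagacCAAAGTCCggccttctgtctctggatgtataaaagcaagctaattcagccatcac

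The exact CAAAGTCC of Cyp2a4 lay 55 bases before the start, and 1.20% of 32841 windows of the same length held one. The 300-base windows around the starts of Ugt2b37 and Ugt2b38 were 87.3% identical over 314 aligned positions, so these neighbours on chromosome 5 share most of their promoter letters. Windows of the other genes on hand held no exact copy, which says nothing of the factor. Ugt3a2 (chr15:9335551-9370955) and Gsta4 (chr9:78191966-78209349) are given by gene position alone.

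From 32280 cells kept of 4 libraries with 90728590 to 115117649 UMIs each (unique molecular identifiers, 1 per captured RNA), 4813 proximal tubule cells formed 7 clusters, called early or late from marker genes. WT gave 1151 early and 475 late cells on ND, and 410 and 289 on HFD. SP gave 509 early and 268 late cells on ND, and 285 and 197 on HFD. The other 1229 cells, in 2 clusters called neither early nor late, were left out of the comparisons. Both clusters had mean log2 ratios below 0 for early and for late markers. WT gave 457 of these cells on ND and 436 on HFD, and SP 190 and 146. The cluster of 598 cells, 313 of them from WT-HFD, was led by S100a6 and Pvalb and held Umod at 262 CPM. Levels are in CPM, a gene's UMIs per 1000000 UMIs pooled over the cells of a group; they can be compared between groups but not between genes. Slc5a12, a lactate carrier of the early tubule, was at 242 to 411 CPM in early and 6.97 to 51.9 in late cells, and Slc7a13, an amino acid carrier of S3, at 53.1 to 169 and 538 to 850. Both are among the markers that named the segments, so their split is no separate check. All early markers summed to 6304 to 7256 CPM in early and still 4321 to 4907 in late cells, and all late markers to 370 to 882 and 1201 to 2341. The late cluster of 1143 cells had a mean log2 ratio of 0.065 for late markers and -1.09 for early ones over the other proximal tubule cells. Early Slc5a2 was at 549 CPM in WT and 107 in SP on ND, and at 446 and 185 on HFD. Pooled levels cannot tell fewer cells of a kind from less RNA per cell.

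Mitochondrial genes took 37.3% to 39.3% of UMIs in early and 33.0% to 37.8% in late cells, highest in SP-ND in both segments. The 50% mitochondrial limit also fell hardest on SP-ND, where 49.8% of barcodes reached it. This share was 42.1% for SP-HFD, 32.7% for WT-ND and 33.2% for WT-HFD. How the loss of these barcodes bears on the SP-ND levels was not tested. The 5 thick ascending limb markers summed to 217 to 287 CPM over both segments, with 0 of them at 0. The 6 macrophage or dendritic cell markers summed to 67.9 CPM in early cells of SP-ND and 10.7 to 22.4 in the other early groups. In late cells they summed to 9.52 CPM in WT and 13.5 in SP on ND, and to 32.3 and 36.4 on HFD, so they moved with the late diet comparisons, in which their part was not tested. WT-HFD stood apart in the clustering, where it gave 903 of the 1384 cells of the thin limb cluster. Without integration 2593 of its cells lay in 1 cluster of 2609. The class nearest to that cluster of 2609 was proximal tubule, with a mean log2 marker ratio of 0.25. It was left without a name, so its cells were not counted as proximal tubule without integration. Pairs of libraries shared 54 to 77 barcodes, of which 10 to 31 were kept cells in both. Intervals below are exact, at 95%, and cover counting error only.

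Cyp2e1 was lowest in SP-ND in both segments. On ND, early cells held 1042 CPM in WT (1022 to 1064) and 410 in SP (394 to 426). On HFD they held 1589 in WT (1556 to 1624) and 1519 in SP (1476 to 1562). Mutant and wild-type levels of this ethanol-oxidising P450 lay far apart on ND and near each other on HFD. Late cells held 1744 in WT and 800.03 in SP on ND, and 2265 and 2013 on HFD, the same order of the 4 libraries. The log2 HFD to ND ratio was 0.61 in early WT cells (0.57 to 0.65) and 1.89 in early SP cells (1.82 to 1.96). In late cells it was 0.38 and 1.33. The log2 SP to WT ratio was -1.35 on ND (-1.41 to -1.28) and -0.07 on HFD (-0.12 to -0.01) in early cells, and -1.12 and -0.17 in late cells. Over the 9 processing alternatives the HFD to ND ratio ran from 0.46 to 0.82 in early WT, 0.13 to 0.41 in late WT, 1.68 to 2.27 in early SP and 0.97 to 1.38 in late SP cells.

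Ugt2b38, a UGT2B enzyme, had the same low library. Early cells on ND held 1594 CPM in WT (1569 to 1621) and 1082 in SP (1057 to 1108), and on HFD 2313 and 2526. Late cells on ND held 2591 in WT and 1482 in SP, and on HFD 3126 and 3135. The intervals of the late HFD libraries overlapped, with a log2 ratio of 0.00 (-0.03 to 0.04). The HFD to ND ratio was 0.54 in early and 0.27 in late WT cells, under 1.5-fold, and 1.22 and 1.08 in SP cells. Over the 58 groups of cell class and library with at least 50 cells, Cyp2e1 was the gene most like Ugt2b38 and Ugt2b38 the gene most like Cyp2e1 among 11451 genes (Pearson r = 0.993 of log2 CPM + 1). The groups share libraries, depth and free RNA.

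Each cell was also thinned to 1000 UMIs. Cyp2e1 was then seen in 74.5% of late WT-ND cells and 49.8% of late SP-ND cells, against 99.6% and 93.7% before thinning. Ugt2b38 was seen in 89.1% and 68.5% after thinning, against 100.0% and 94.4% before. Both stayed lower in SP-ND at equal depth. T or NK cells, where neither enzyme is expected, with median depths of 1546 to 2861 UMIs, gave the background: Cyp2e1 in 22.5% of thinned WT-ND cells and 4.84% of SP-ND cells, Ugt2b38 in 41.2% and 12.1%. Pooled Cyp2e1 there was 311 CPM in WT and 31.8 in SP on ND, and 122 and 81.5 on HFD, so the background too was lowest in SP-ND. With 10% of UMIs subtracted as free RNA, the signs of the HFD to ND ratios and of the SP to WT ratios on ND were unchanged for both enzymes.

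Ugt2b37, the neighbour of Ugt2b38, was higher on HFD in late cells and was carried by few cells. On ND late cells held 35.1 CPM in WT (30.5 to 40.2) and 28.7 in SP (24.1 to 34.0). On HFD they held 119 in WT (111 to 129) and 260.4 in SP (242 to 280). Both HFD libraries stood above both ND libraries, whose intervals overlapped. The log2 HFD to ND ratio was 1.77 in WT (1.54 to 2.00) and 3.18 in SP (2.91 to 3.45), a 9.06-fold level in SP. In late SP-HFD, 77 of 197 cells had a UMI, and the 20 cells with most held 78.3% of the 736 UMIs.

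In early cells Ugt2b37 was at 14.1 CPM in WT and 29.8 in SP on ND, and at 25.0 and 79.5 on HFD. The early WT levels lay within the intervals of T or NK cells of the same libraries. These were 12.4 CPM (4.04 to 29.0) on ND and 12.6 (5.07 to 26.0) on HFD, so pooled CPM does not set the early WT levels apart from background. Their UMIs were unevenly spread, and in WT-HFD 5 cells held 40.3% of 134. The Gsta2-rich early cluster described below held 42.8 CPM in WT-ND and 84.9 in WT-HFD, against 12.2 and 18.4 in the other early cells. In early SP-ND a single cell held 85 of the 186 UMIs, 45.7%. With cells under 30% mitochondrial UMIs the early HFD to ND ratio in SP turned from 1.42 to -0.34, and without integration the early SP to WT ratio on ND turned from 1.08 to -1.29, so no direction is given for these. In the last 1000 bases of the Ugt2b37 transcripts, 16.5% of words of 50 bases also occur in other genes. Ugt2b5 held 147 of these 157 words and was at 3.18 CPM or less in each group. Ugt2b38 held 47 of them and was at 1082 CPM or more, and its part in the Ugt2b37 counts was not tested.

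**Figure D1:**
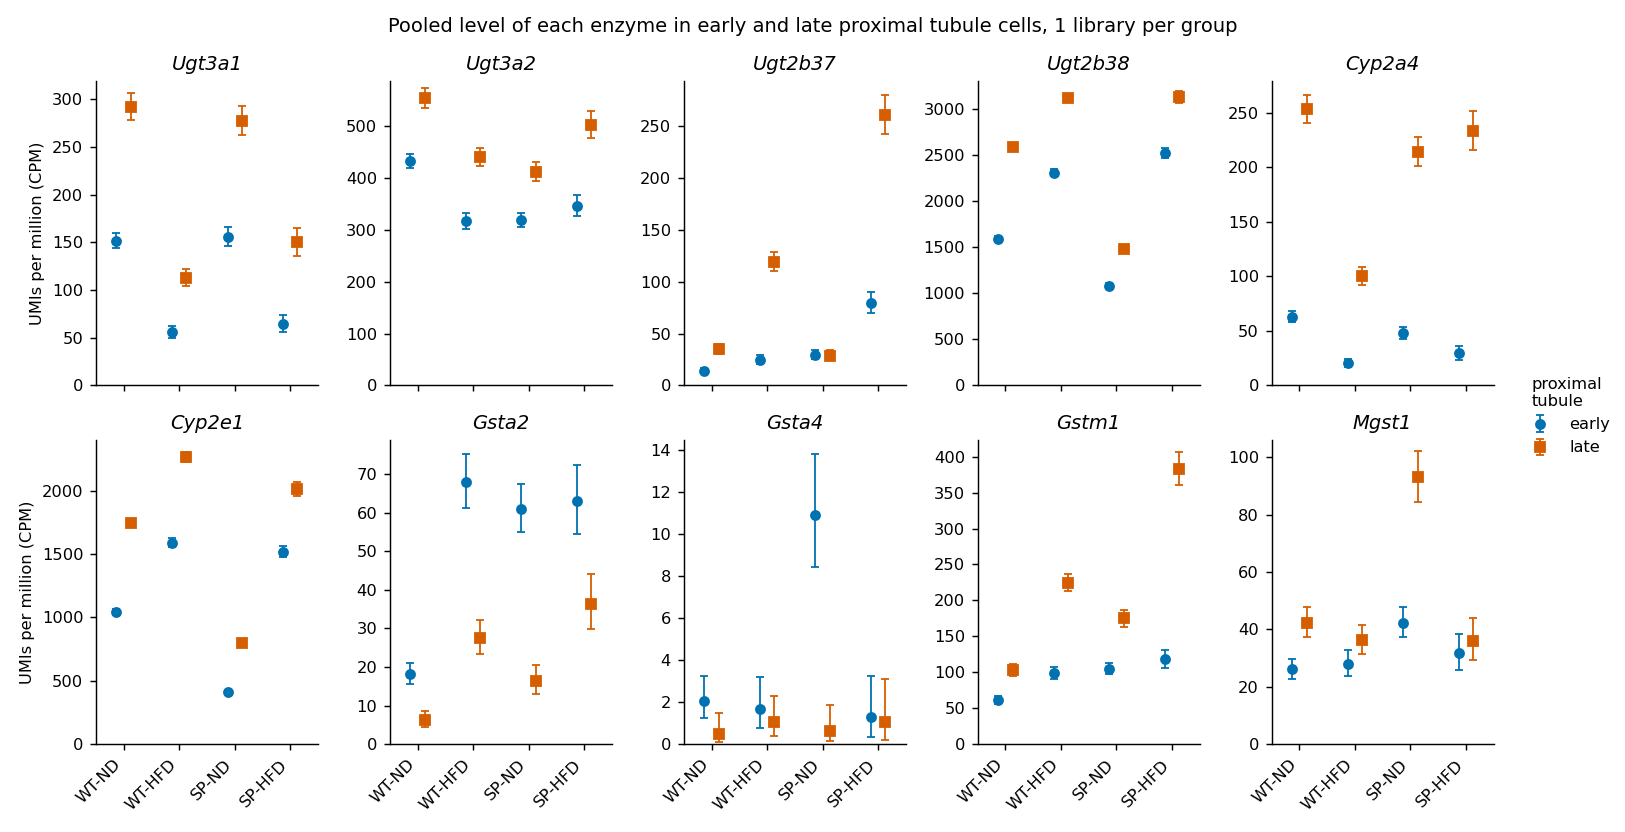
Pooled level of each of the 10 enzymes (y axes, CPM, each from 0) in the 4 libraries (x axis), with early proximal tubule cells as circles and late cells as squares. Bars are exact 95% Poisson intervals of the UMI count and hold no spread between mice. Cyp2e1 and Ugt2b38 are lowest in SP-ND in both segments, and Ugt3a1 is lower in both HFD libraries than in both ND libraries.

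Ugt3a1 went the other way with diet. Late cells held 292 CPM in WT (279 to 306) and 277 in SP (262 to 293) on ND, and 113 (104 to 122) and 150.0 (136 to 165) on HFD. Early cells held 152 in WT and 156 in SP on ND, and 56.1 and 64.5 on HFD. Both HFD libraries were below both ND libraries in each segment, and the ND pair overlapped. T or NK cells held 59.7 CPM in WT (38.2 to 88.8) and 14.5 in SP on ND, and 5.40 and 3.20 on HFD. The background of Ugt3a1 was thus also lower on HFD, and the ratios that follow are not corrected for it. The log2 HFD to ND ratio was -1.44 in early WT cells (-1.62 to -1.26) and -1.37 in late WT cells, and -1.28 and -0.89 in SP cells. It was below 0 under each of the 9 alternatives, from -1.56 to -0.38 over the 4 comparisons. Ugt3a2, beside it on chromosome 15, varied less. It ran from 317 to 433 CPM in early and from 412 to 554 in late cells, highest in WT-ND in both, and no ratio between diets or genotypes reached 1.5-fold. Of their 3′ words 4.31% for Ugt3a1 and 5.68% for Ugt3a2 recur in other genes, so most of these ends can be told apart.

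Cyp2a4, the steroid hydroxylase, was lower on HFD in late WT cells. They held 253 CPM on ND (241 to 266) and 99.9 on HFD (91.9 to 108), a log2 ratio of -1.34 (-1.48 to -1.20), and -1.44 to -0.91 over the alternatives. Early WT cells held 62.9 on ND and 20.1 on HFD, within the intervals of T or NK cells of the same libraries, 49.7 (30.4 to 76.8) and 12.6 (5.07 to 26.0). Pooled CPM thus does not set these early WT levels apart from background, and no ratio is drawn from them. Their UMIs were unevenly spread, with 29 of 575 in 1 cell on ND and 15 of 108 in 1 cell on HFD. T or NK cells held 20 UMIs over 237 cells on ND and 7 over 173 on HFD. Late SP cells held 214 CPM on ND (201 to 228) and 233 on HFD (215 to 251), with overlapping intervals, and early SP cells 47.9 and 29.4. With cells under 30% mitochondrial UMIs the early SP ratio turned from -0.71 to 0.59, so no direction is given for it. Late SP-HFD held 54 cells of a small Cyp7b1-rich cluster described below, without which Cyp2a4 was at 160 CPM in SP-HFD and 192 in SP-ND. Of its 3′ words 52.4% recur elsewhere, above all in Cyp2a5, so counts of this pair are uncertain. Cyp2a5 was also lower on HFD, at 139 and 48.7 CPM in late WT cells and 200.3 and 36.1 in late SP cells on ND and HFD.

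Gsta2 was lowest in WT-ND in both segments. On ND early cells held 18.2 CPM in WT (15.5 to 21.1) and 60.9 in SP (54.9 to 67.3), and on HFD 68.0 and 62.9. WT-ND stood below the other 3, whose intervals overlapped. Late cells held 6.18 in WT and 16.5 in SP on ND, and 27.5 and 36.4 on HFD. The early and late WT-ND levels lay within the interval of T or NK cells of that library, 9.95 CPM (2.71 to 25.5). The late WT-ND level is read as background. Pooled CPM does not set the early one apart from background, but its UMIs were unevenly spread. Of these 166 UMIs, 113 lay in 76 cells of the Gsta2-rich early cluster described below, at 202 CPM. No Gsta2 ratio is drawn from either WT-ND level. Of its 3′ words 47.4% recur in other genes, chiefly Gsta1 (368 words), Gm10639 (367) and Gm3776 (315). Gsta1 was at 13.4 CPM or less in each group, and no level is given for the others.

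Gstm1 was lowest in WT-ND in both segments and highest in SP-HFD in late cells. Late cells on ND held 103 CPM in WT (94.8 to 111) and 175 in SP (163 to 187). On HFD they held 225 in WT (213 to 237) and 382 in SP (360.0 to 406), with no overlap among the 4 intervals. The log2 HFD to ND ratio in late cells was 1.13 in WT (0.99 to 1.27) and 1.13 in SP (1.00 to 1.26), and the SP to WT ratio 0.77 on each diet. Without the Cyp7b1-rich cells the late levels were 160 CPM in SP-ND, 308 in SP-HFD and 207 in WT-HFD. Early cells held 61.3 in WT and 105 in SP on ND, and 99.1 and 118 on HFD, the last 3 overlapping. Without integration the early SP to WT ratio on HFD turned from 0.26 to -0.30. Of its 3′ words 22.5% recur in other genes and pseudogenes.

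Mgst1, the membrane enzyme, was highest in SP-ND. Late cells held 42.3 CPM in WT and 92.95 in SP on ND (84.5 to 102 in SP), and 36.3 and 36.1 on HFD. Early cells held 26.0 in WT and 42.3 in SP on ND, and 27.9 and 31.6 on HFD. The late SP to WT ratio on ND was 1.14 on the log2 scale, 0.89 to 1.54 over the alternatives, while the early one, 0.70, was -0.0146 without integration. Gsta4 was hardly read in these cells, with 3 to 6 UMIs per library in late and 4 to 68 in early cells. It lay below the level of T or NK cells in each library and both segments, and its ratios are not described. Of its 68 UMIs in early SP-ND cells, 54 came from 77 cells of the cluster that also carried Gsta2.

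**Figure D2:**
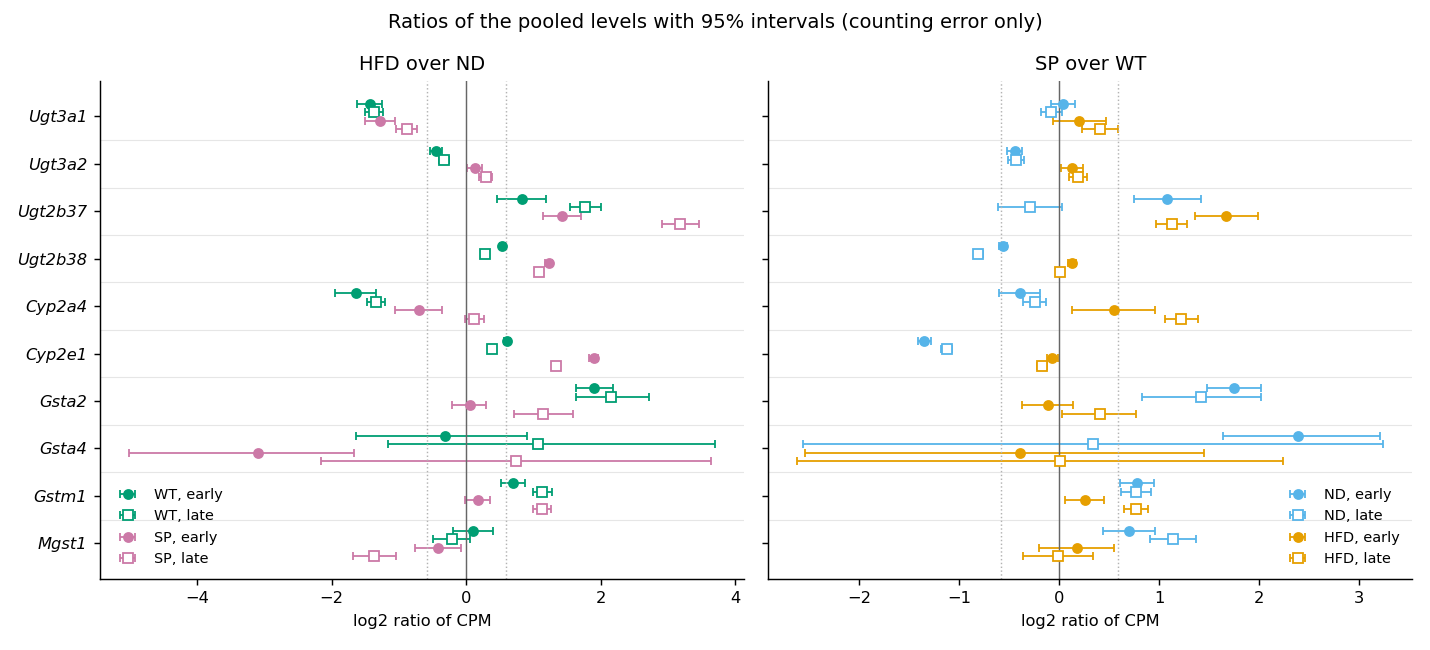
Log2 ratios of the pooled CPM of each enzyme, HFD over ND (left) and SP over WT (right), with exact 95% intervals that cover counting error only. Filled circles are early and open squares late proximal tubule cells, and the dotted lines stand at 1.5-fold. Cyp2e1 and Ugt2b38 lie to the left of 0 for SP over WT on ND and near 0 on HFD, and the wide bars of Gsta4 come from its few UMIs.

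Counts past 1.5-fold were set beside those of all genes with at least 20 CPM in 1 of the 2 groups, whose share is given as background. For HFD against ND in WT, 4 of the 9 enzymes at this level were higher (background 6.71%) and 2 lower (4.28%) in early cells, and 3 of 9 higher (5.97%) and 2 lower (5.09%) in late cells. In SP, 3 of 9 were higher (7.03%) and 2 lower (8.37%) in early cells, and 5 of 9 higher (9.43%) and 2 lower (7.44%) in late cells. For SP against WT on ND, 4 of 9 were higher (3.45%) and 1 lower (1.76%) in early cells, and 2 of 8 higher (4.41%) and 2 lower (2.49%) in late cells. On HFD, 1 of 9 was higher (1.51%) and 0 lower (0.656%) in early cells, and 3 of 9 higher (3.54%) and 0 lower (0.483%) in late cells. Nothing is read from these counts, because the enzymes were picked from the same contrasts. The counts also include ratios of Ugt2b37, Cyp2a4 and Gsta2 with a WT level that pooled CPM did not set apart from background. Gsta4 never met the level, nor did Gsta2 where 8 are counted. The median log2 ratio of all genes lay between -0.05 and 0.12.

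Most of the enzymes had a higher level in late than in early cells of the same library. Cyp2a4 had the steepest step in SP, 4.47-fold on ND and 7.92-fold on HFD. Without the Cyp7b1-rich cells described below, its late level was 192 CPM in SP-ND and 160 in SP-HFD, against 47.9 and 29.4 in early cells. No step is given for Cyp2a4 in WT, where pooled CPM did not set its early level apart from background. Ugt3a1 was 1.77-fold to 2.33-fold and Gstm1 1.66-fold to 3.23-fold higher in late cells. Without the Cyp7b1-rich cells, Gstm1 in SP-HFD was at 308 CPM in late and 118 in early cells. Cyp2e1 was 1.67-fold higher in WT and 1.95-fold in SP on ND, and 1.43-fold and 1.33-fold on HFD. Without integration the last 2 had log2 ratios of -0.08 and -0.07, so no segment difference is given for Cyp2e1 on HFD. Gsta2 was lower in late cells of WT-HFD, SP-ND and SP-HFD, with log2 ratios of -1.30, -1.89 and -0.79. In WT-ND, where the late level is read as background, its ratio without integration was -0.10. Past 1.5-fold, 7 of 8 enzymes were higher in late cells of WT-ND (background 5.06%) and 0 lower (4.39%), and 4 of 9 higher in WT-HFD (4.92%) and 1 lower (5.54%). The higher enzymes of both WT libraries include Cyp2a4 and Ugt2b37, whose early WT levels pooled CPM did not set apart from background. In SP-ND 5 of 9 were higher (3.71%) and 1 lower (3.83%), and in SP-HFD 4 of 9 higher (7.32%) and 1 lower (4.55%). These contrasts also lie behind the choice of the genes. Together the 10 enzymes took 0.562% of late UMIs in WT and 0.350% in SP on ND, and 0.645% and 0.675% on HFD.

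Within the late segment, a cluster of 86 cells led by Cyp7b1, an oxysterol hydroxylase, had another enzyme profile. It held 3 cells of WT and 18 of SP on ND, and 11 and 54 on HFD, with a median of 3154 UMIs a cell against 15610 in the other late cluster. Over the 4 libraries, Cyp2a4 was at 1052 CPM in these cells and 177 in the other late cells, and Gstm1 at 1205 and 176. Ugt3a1 stood at 450 and 210 CPM, and Ugt3a2 at 755 and 472. Cyp2e1 was instead at 89.96 CPM against 1740, and Ugt2b38 at 310 against 2604. The split thus ran through the enzymes, with the P450s on opposite sides. Cyp2e1 in these cells rested on 2 UMIs in SP-ND, 18 in SP-HFD and 8 in WT-HFD, or 14.2, 99.5 and 127 CPM. T or NK cells of these libraries had 31.8, 81.5 and 122, so this level is read as background and no fold is drawn from it. Ugt2b38 rested on 4 UMIs in SP-ND, or 28.5 CPM, below the 130 of T or NK cells there, and is read as background in that library. In SP-HFD and WT-HFD it was at 276 and 539 CPM, against 144 and 200 in T or NK cells and 3331 and 3154 in the other late cells. The log2 ratio of Cyp2a4 was 2.31 (2.03 to 2.57), 3.02 and 2.97 in the same libraries. The enzymes were left out of the genes used for clustering. What sets the cell numbers of this cluster was not tested.

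At the early end, 249 cells led by Rnase4 and Sparc were rich in Gsta2. This cluster was picked because its Gsta2 level was the highest of the proximal tubule clusters. Its Gsta2 contrast with the other early cells is therefore no separate check. In these cells Gsta2 was at 202 CPM in WT and 231 in SP on ND, and at 370 and 204 on HFD. In the other early cells it was at 6.18 and 25.5 on ND, and at 34.9 and 46.7 on HFD. The cluster held 113 of the 166 early Gsta2 UMIs of WT and 248 of the 380 of SP on ND, and 196 of 365 and 66 of 197 on HFD. Cyp2e1 was lower there in each library, from 164 to 876 CPM against 461 to 1697. Ugt2b37 was at 159 CPM there in SP-ND against 2.90 elsewhere, but a single cell held 85 of those 171 UMIs. The SP-HFD cells gave 89.5 CPM inside and 78.4 outside the cluster, and the interval of their log2 ratio, -0.42 to 0.75, spans 0. The cluster made up 76 of 1151 early cells in WT and 77 of 509 in SP on ND, and 59 of 410 and 37 of 285 on HFD. The part of these shares in the early Gsta2 levels was not tested.

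**Figure D3:**
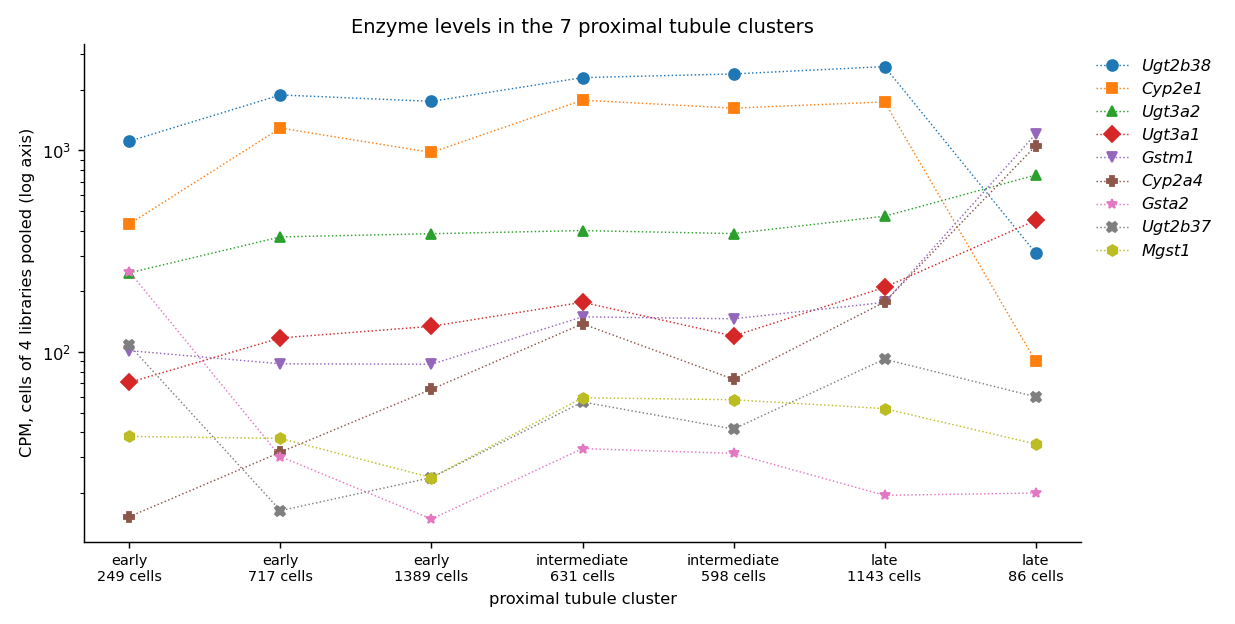
CPM on a log axis of 9 enzymes in the 7 clusters of proximal tubule cells, pooled over the 4 libraries. Early clusters are on the left of the x axis and late ones on the right, with clusters called neither placed between them. The dotted lines join points of 1 gene, and levels are to be read within a gene. In the late cluster of 86 cells, Cyp2a4 and Gstm1 reach 1052 and 1205 CPM while Cyp2e1 is at 89.96, and Gsta2 is highest in the early cluster of 249 cells.

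Among 15 named cell classes, 7 of the 10 genes had their highest median level over libraries in a proximal tubule class, and 3 did not. Gsta4 was highest in podocytes, the filtration cells of the glomerulus, at 640.0 to 778 CPM. Gstm1 was highest in the thin limb or inner medullary duct class, with a median of 735 CPM; in WT-HFD it was at 278, and Ugt2b38 there was at 1289 CPM against 66.2 to 266 in the other 3 libraries. Mgst1 had medians of 288 CPM in neutrophils, 242 in principal cells and 228 in the thick ascending limb, against 29.8 in early and 39.3 in late proximal tubule. By class median, then, the name proximal tubule enzymes does not hold for Gsta4, Gstm1 and Mgst1. Within the late tubule class, however, the Cyp7b1-rich cluster held Gstm1 at 1205 CPM, above the thin limb median. For the other 7 the median in any named class outside the proximal tubule was at most 285 CPM, that of Ugt2b38 in B cells, where the late tubule had 2858. A cluster of 290 cells led by Ubd and C3, left without a name, held 191 to 386 CPM of Ugt2b37 in the 3 libraries with at least 50 of its cells, above the late tubule median of 77.2. The class nearest to it was early proximal tubule, with a mean log2 marker ratio of 0.89, too low for a name. Without integration a cluster of 540 cells led by Ubd and C3 was named early proximal tubule. The part of these cells in the Ugt2b37 ratios without integration was not tested.

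**Figure D4:**
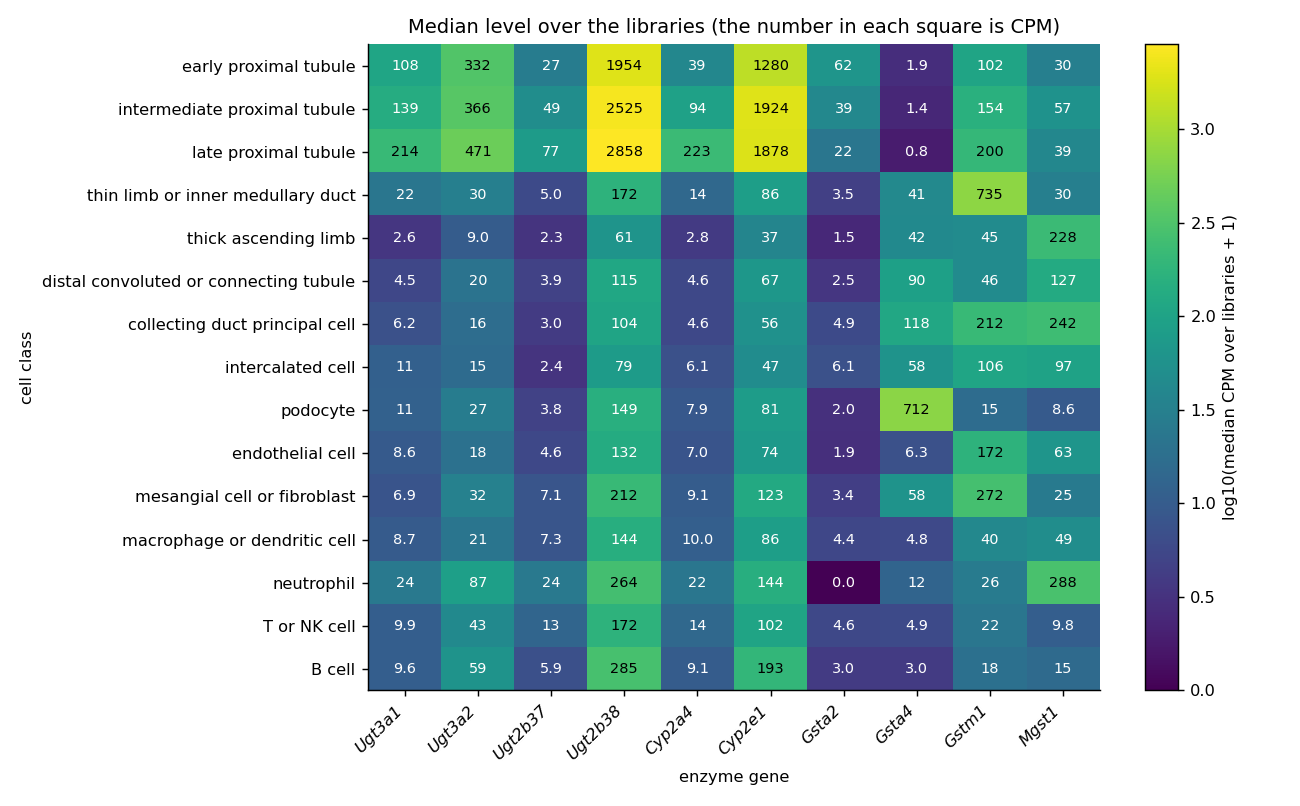
Median CPM over the libraries (number and colour, on a log10 scale) of the 10 enzymes (columns) in 15 cell classes (rows) named from markers. Gsta4 reaches 712 in podocytes and Gstm1 735 in the thin limb class, while the Ugt3a and Ugt2b genes are highest in late proximal tubule.

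By pattern over the 58 groups, Ugt3a2 lay closest to Slc27a2, Acsm2 and Slc3a1 (r from 0.991 to 0.986) and Ugt3a1 to Slco1a6, Lrp2 and Slc27a2 (0.944 to 0.940). Cyp2a4 was most like Cndp2 and then Ugt3a1 (0.941 and 0.939), and Ugt2b37 most like Pck1, a gluconeogenic enzyme (0.910). The highest r was 0.807 for Gstm1 (Hoxb2) and 0.772 for Mgst1 (Slc40a1).

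Other members of these families were counted the same way. Of 20 other glutathione transferases, 9 met the level in late SP cells, where 0 were higher (background 9.43%) and 3 lower (7.44%) on HFD (median log2 ratio -0.48, all genes 0.01). Gsta3 was at 121 CPM in SP-ND and 24.1 in SP-HFD, and at 39.3 in WT-ND. For SP against WT on ND, 3 of 9 were higher (background 4.41%) in late cells and 0 lower (2.49%), with a median of 0.49 (all genes 0.09). Of 25 other P450s of families 1 to 3, 5 or 6 met the level in each comparison. Cyp2d26 was at 117 CPM in early and 19.2 in late WT-ND cells, and Cyp2d9 the reverse, at 21.6 and 91.4. Of 17 other UDP-glucuronosyltransferases at most 1 met the level.

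Among 45 further phase I and II enzymes, 34 met the level in late SP cells, where 9 were higher (background 9.43%) and 7 lower (7.44%) on HFD. In late WT cells 32 met it, with 1 higher (5.97%) and 2 lower (5.09%); the difference between genotypes was not tested. Acsm3, a medium-chain acyl-CoA synthetase, was at 127 CPM in late cells of SP-ND and 603 in SP-HFD, against 512 in WT-ND and 477 in WT-HFD. Inmt, a methyltransferase, was at 125 CPM in late SP-ND and 335 in late WT-ND cells. Adh1, the alcohol dehydrogenase, was at 104 CPM in late SP-ND and 358 in late SP-HFD cells. These 3 had their lowest level in SP-ND, as Cyp2e1 did. Of 16 genes of electron and cofactor supply, 4 were higher (background 9.43%) on HFD in late SP cells and 0 lower (7.44%). Papss1 and Papss2, which both make the sulphate donor, went opposite ways. Papss1 was at 38.7 CPM in late SP-ND and 103 in late SP-HFD cells, and Papss2 at 171 and 116. In early SP cells Papss2 was at 174 CPM on ND and 67.1 on HFD. Por, the electron donor of microsomal P450s, was at 108 CPM in early SP-ND and 190.3 in early SP-HFD cells.

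Of 20 regulators, 9 to 11 met the level. Ppara, the fatty-acid receptor, had log2 HFD to ND ratios of 0.86 in WT and 1.02 in SP in early cells, and 0.52 and 0.90 in late cells. Hnf4a ran from -0.15 to 0.08 in these 4 comparisons. Ghr, the growth hormone receptor, was higher in late than in early cells of each library, by 0.71 to 1.04 on the log2 scale. Hnf4a differed between segments by -0.19 to -0.10.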

How the data were processed

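Whole kidneys were dissociated and captured with 10x Genomics 3′ v3.1 chemistry, 1 library per group. The authors deposited UMI counts per gene and barcode, not normalised. The matrix headers name Cell Ranger 6.1.2, while the submitters' processing notes name Cell Ranger 2.1.1 and mm10; which one counted the reads is not settled. The deposited barcodes had at least 500 UMIs. Cells with 200 to 5000 genes and under 50% mitochondrial UMIs were kept, 0.8% per 1000 cells were removed as doublets by a simulated-doublet score, and genes in at least 3 cells were used. Cells were clustered in Seurat 5.3.0 with CCA integration (2000 genes, 50 dimensions, resolution 0.5), leaving out the enzymes and all list genes, and named from marker lists; proximal tubule cells were clustered again. A cluster was early with a mean log2 ratio of at least 0.25 for early markers that exceeded the late one by at least 0.5. Early clusters also had to pass a floor on the general proximal tubule markers. A cluster was late where the late ratio exceeded the early one by at least 0.5. The late rule, unlike the early one, did not ask for a positive ratio of its own markers. These limits were set after the clusters were seen. Counts were pooled per segment and library and given as CPM with Poisson intervals; ratios carry exact conditional binomial intervals. With 1 library per group no test was possible. The members, lists and markers were chosen with earlier results of these data known. Genes named beside the enzymes are the 2 highest and 2 lowest ratios of each list with at least 50 CPM, the regulators at 20 CPM, and the 3 genes most like each enzyme; genes shown for a second library, with paralogs, were added after their values were seen. Some regulators are not reported here. Coordinates are GRCm38.p6, with 8 of 10 promoters matched. Interval and fold calculations were tested on simulated counts. Total UMIs per library limit the precision. SciPy 1.17.1 was used.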

Additional observations from a re-analysis of the deposited data

How the results depend on the processing

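The medians of the 10 enzymes' log2 ratios, 12 in all, were computed under 9 alternatives, of which leaving out the Cyp7b1-rich late cells was added after the data were seen. These medians include Gsta4, which was hardly read. They also include ratios of Ugt2b37, Cyp2a4 and Gsta2 with a WT level that pooled CPM did not set apart from background. Over the 9 enzymes with at least 20 CPM, the median for SP to WT on ND in early cells was 0.04 (all genes 0.12), against 0.37 with Gsta4. For HFD to ND in late SP cells it was 1.08, against 0.91. The part of Gsta4 in the moves below was not tested. Of 108 values, 91 stayed within the counting error of the first value and 17 did not; the cause was not tested. Without integration the median was 0.59 (first 0.32) for HFD to ND in early WT cells, -0.01973 (0.32) in late WT cells, 0.52 (0.91) in late SP cells, -0.01519 (0.37) for SP to WT on ND in early cells, 0.55 (0.30) on HFD in late cells and 0.83 (0.59) for late to early in SP-ND. With a gate per cell, which left 1129 of 4813 cells near its limit, SP to WT on ND in late cells was 0.0717 (-0.16), and as a mean over cells it was -0.0027. Under 30% mitochondrial UMIs it was 0.19, with 0.48 for HFD to ND in late SP cells, 0.47 for SP to WT on HFD in late cells and 0.88 for late to early in SP-ND. With doublets at 1.6% per 1000 cells the medians were 0.12 for SP to WT on ND in early cells and 0.81 for late to early in SP-ND. With 10% of UMIs subtracted as free RNA, HFD to ND in WT was 0.59 in early and 0.17 in late cells, and without the Cyp7b1-rich cells it was 0.59 in late SP cells. Single ratios past 1.5-fold changed sign without integration for Ugt2b37 (-1.29) and Mgst1 (-0.0146) in SP to WT on ND, early, and Gsta4 (-1.53) in HFD to ND in WT, late. They also did under 30% mitochondrial UMIs for Ugt2b37 (-0.34) and Cyp2a4 (0.59) in HFD to ND in SP, early, and Gsta4 (-0.63) in late cells, and with free RNA subtracted for Gsta4 in late to early of WT-ND (0.61). Cyp2e1 and Ugt2b38 kept the sign of their HFD to ND ratios and of their SP to WT ratios on ND under each alternative. The numbers of genes past 1.5-fold, 22 to 450, became 2 to 168 past 2-fold, and 822 to 2577 with no minimum CPM. No paired analysis was possible because each group is 1 library. Depth limits Gsta4 most, with 3 UMIs in late cells of 3 libraries.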

Other observations

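A shallow cluster of 3296 cells was left without a name, although it carried the enzymes. Ugt2b38 ran from 593 to 1425 CPM over its 4 libraries and Cyp2e1 from 220 to 816, both lowest in SP-ND. Gsta2 had a median of 116 CPM there, above the 61.9 of early proximal tubule cells. Ugt2b37 was at 215 CPM in its SP-HFD cells and at 22.6 to 47.4 in the other 3 libraries.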
